A study of Mus musculus with 9 samples.

Results

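Enzymes that detoxify quinones and reactive carbonyls were followed in cultured mouse cells given vesicles isolated from brain (BDEV, brain-derived extracellular vesicles), the membrane-enclosed particles that brain cells release. The set was chosen by name, with earlier results of these libraries known, and holds 9 of the 24318 genes listed. It has the quinone reductases Nqo1 and Nqo2, the carbonyl reductases Cbr1 and Cbr3, and the aldo-keto reductases Akr1a1, Akr1b3 and Akr1b8. The genes Ephx1 and Ugt1a6b complete it. Ephx1 and Ugt1a6b are no reductases; they encode an epoxide hydrolase and a glucuronosyltransferase that act in the same clearance of reactive compounds. Of the 9 genes, 5 rose after either kind of vesicle in the fit reported, Nqo1 by far the most. Another 3 did not pass the test, and Cbr3 was listed at 0 in every library. Of all genes tested, 6.76% rose with vesicles named for status epilepticus, a prolonged seizure, and 3.81% with control vesicles. Both comparisons use the same 3 libraries of cells without vesicles. With control vesicles the calls were less steady: 2 to 5 members passed with 1 library left out. Ugt1a6b lost its call there in 10 of 13 alternative fits. In the authors' deposited table Nqo1 was called in neither comparison.

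Quinones and carbonyls arise from lipid peroxidation, from oxidised catecholamines and from drugs, and both kinds of compound react with proteins. Cells dispose of them in steps: reductases turn the quinone or carbonyl into a hydroquinone or alcohol with electrons from NADPH, epoxide hydrolase opens epoxides with water, glucuronosyltransferases attach a glucuronic acid, and membrane pumps export the conjugate. Many of these genes, with Nqo1 as the textbook example, are known targets of NRF2, the transcription factor that responds to oxidants and electrophiles, and some also of the aryl hydrocarbon receptor. Liver carries the fullest set, and in brain the NRF2 targets among them are known above all from glia.

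There were 9 polyA-selected RNA-seq libraries in 3 groups of 3. SE-BDEV cells received vesicles named for status epilepticus, a prolonged seizure (library names EV Pilo), CON-BDEV cells received vesicles named as control (library names EV Saline), and Vehicle cells received none (library names CON). The labels do not spell out Pilo; genotype, dose and exposure time were not given in the labels used here. The design text names BV2, an immortalised mouse microglial line, while the cell line label of every library reads N2a, a mouse neuroblastoma line. Whether replicates were separate cultures is not stated, so the p-values cover variation among these libraries alone, some or all of which may be technical.

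Values are FPKM, fragment counts scaled to transcript length and library size. Summed FPKM ran from 600196 to 625660, 10486 to 10561 genes reached 1 FPKM, and the depth estimated from the steps between low values was 27700000 to 32000000 fragments per library. All 12 microglia and macrophage markers reached 1 FPKM (Cd68, a phagocyte lysosomal protein, averaged 740 FPKM, and Csf1r, the growth factor receptor of microglia, 82.6 FPKM). Of 12 neuronal and neuroblastoma markers 3 did (Uchl1 at 90.2, Ina at 9.72 and Elavl4 at 3.92 FPKM), and Th, Dbh, Mycn and Stmn2 were among those at 0. The summed neuronal markers ran from 106 to 116 FPKM in SE-BDEV, 110 to 117 FPKM in CON-BDEV and 86.8 to 90.2 FPKM in Vehicle libraries. That sum was mostly Uchl1. It lay higher in vesicle than in Vehicle libraries, as did the members that rose, and its part in the results was not tested. The summed microglia and macrophage markers overlapped, at 3137 to 3528 FPKM in SE-BDEV, 3180 to 3397 FPKM in CON-BDEV and 3082 to 3212 FPKM in Vehicle libraries. None of 8 hepatocyte markers reached 1 FPKM.

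Each vesicle group was compared with Vehicle by limma on log2(FPKM + 1) over all genes averaging at least 1 FPKM, and a gene passed at a Benjamini-Hochberg adjusted p under 0.05. In SE-BDEV against Vehicle, 5 of the 8 members tested rose and 0 fell, where 6.76% of the 10535 genes tested rose and 5.14% fell (11.9% in either direction). In CON-BDEV against Vehicle the same 5 rose and 0 fell, where 3.81% of 10535 genes rose and 1.86% fell (5.67% in either direction). In each comparison the vesicle and Vehicle ranges were apart for the same 5 members, all higher; this was so for 32.8% of genes with SE-BDEV (16.5% higher) and 29.3% with CON-BDEV (16.6% higher). The median log2 fold change of the 8 was 0.45 with SE-BDEV and 0.39 with CON-BDEV, and that of all genes 0.00 after rounding in the SE-BDEV and 0.01 in the CON-BDEV comparison. Both comparisons use the same 3 Vehicle libraries, and the members were chosen with earlier results of these libraries known. The counts therefore describe the members and are no independent evidence of a direction. FPKM from whole cultures cannot tell a change in every cell from one in some of the cells, nor fewer cells of a type from less RNA per cell.

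The counts over all genes moved with single libraries. With SE-BDEV, 1253 genes passed, and 501, 601 or 678 without Vehicle replicate 1, 2 or 3. With CON-BDEV, 597 passed, and 110, 84 or 121 without Vehicle replicate 1, 2 or 3, 133 without CON-BDEV replicate 3, and 1067 or 905 without CON-BDEV replicate 1 or 2. The members passing with SE-BDEV were 5 in all 6 such fits; with CON-BDEV they were 3, 2 and 3 without Vehicle replicate 1, 2 and 3, and 4 or 5 in the others.

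**Figure D1:**
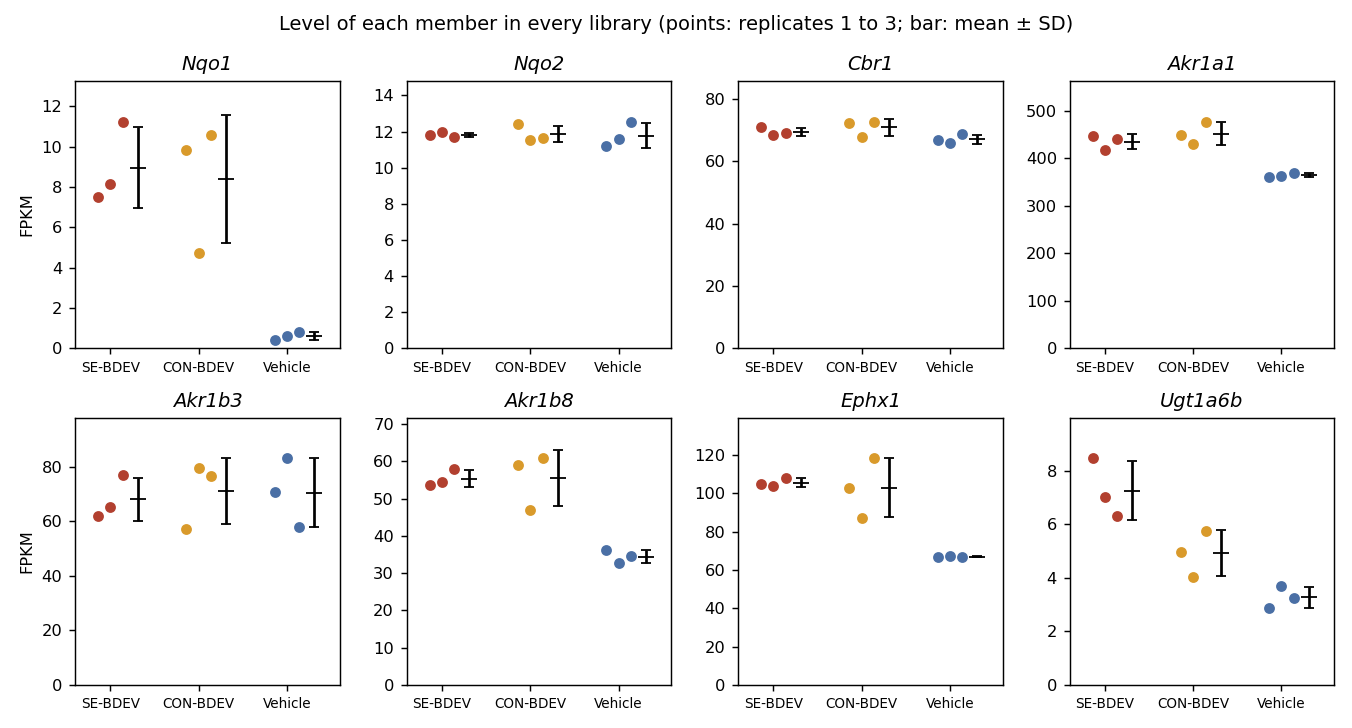
FPKM of the 8 members with values above 0 in each library (points, replicates 1 to 3 from left to right) with the group mean and SD (bars), for SE-BDEV, CON-BDEV and Vehicle. Nqo1, Akr1a1, Akr1b8, Ephx1 and Ugt1a6b lie higher in all 6 vesicle libraries than in the 3 Vehicle libraries, whereas Nqo2, Cbr1 and Akr1b3 overlap.

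In Vehicle cells the members spanned a wide range of levels. Akr1a1 was the most abundant (360 to 368 FPKM), and Ephx1 (66.9 to 67.3 FPKM), Cbr1 (65.9 to 68.7 FPKM) and Akr1b3 (57.8 to 83.0 FPKM) came next, with overlapping ranges. Akr1b8 (32.7 to 36.1 FPKM), Nqo2 (11.2 to 12.5 FPKM), Ugt1a6b (2.88 to 3.68 FPKM) and Nqo1 (0.406 to 0.815 FPKM) followed with ranges that did not overlap. Nqo1 was thus the lowest of the 8 genes before exposure. In vesicle libraries its level overlapped that of Ugt1a6b, at 7.51 to 11.2 FPKM against 6.31 to 8.46 FPKM with SE-BDEV and 4.73 to 10.6 FPKM against 4.04 to 5.76 FPKM with CON-BDEV.

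Nqo1, the flavoenzyme that reduces quinones directly to hydroquinones and so avoids the reactive semiquinone, changed most. It had 7.51, 8.14 and 11.2 FPKM in SE-BDEV libraries, 9.85, 4.73 and 10.6 FPKM in CON-BDEV libraries, and 0.406, 0.597 and 0.815 FPKM in Vehicle libraries. Every vesicle library stood above every Vehicle library, and CON-BDEV replicate 2 was the lowest of the 6. Group means were 8.96 ± 1.99, 8.39 ± 3.19 and 0.606 ± 0.205 FPKM (SD, n = 3 each), a ratio of 14.8 for SE-BDEV over Vehicle and 13.8 for CON-BDEV over Vehicle. By limma the log2 fold change was 2.62 ± 0.14 (SE; adjusted p = 6.61e-06) with SE-BDEV and 2.49 ± 0.24 (SE; adjusted p = 0.00164) with CON-BDEV. Among the 10535 genes that met the filter, Nqo1 had the highest log2 fold change in the SE-BDEV comparison. In the CON-BDEV comparison the highest was 3.24, of another gene. Nqo1 lay under 1 FPKM in every Vehicle library, so it met the filter only through the vesicle libraries, where it is high. Its rank is therefore a description. With no filter it still passed in both comparisons. The added 1 FPKM shrinks the change of so low a gene: with 0.1 FPKM added the values were 3.70 and 3.55.

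About 343, 357 and 543 fragments stood behind Nqo1 in SE-BDEV libraries, 452, 203 and 513 in CON-BDEV libraries and 19.9, 29.7 and 37.6 in Vehicle libraries, estimated from depth and an exon length of 1553 nt. In the authors' deposited table Nqo1 is listed with log2 fold changes of 3.89 (q = 0.605) for SE-BDEV and 3.79 (q = 0.599) for CON-BDEV, so the changes are as large there but were not called. The authors' deposited table gives Nqo1 a locus of chr8:109780064-110082495 (mm9), 302 kb that 6 entries share, among them Nob1, Nfat5 and Wwp2.

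The neighbours listed at that locus changed far less than Nqo1. Nob1, a factor of small ribosomal subunit maturation, had 60.9 ± 3.91 FPKM in SE-BDEV, 63.8 ± 3.70 FPKM in CON-BDEV and 53.4 ± 1.12 FPKM in Vehicle libraries (SD, n = 3 each). Its limma log2 fold change was 0.19 (adjusted p = 0.0391) with SE-BDEV and 0.25 (adjusted p = 0.0248) with CON-BDEV. Nfat5, a transcription factor of the response to salt stress, gave 0.01 and -0.17 (limma adjusted p of 0.958 and 0.227), and the ubiquitin ligase gene Wwp2 gave -0.04 and -0.04 (limma adjusted p of 0.639 and 0.694). These 3 neighbours were chosen because they share the deposited locus.

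Nqo2, the close relative of Nqo1 that uses dihydronicotinamide riboside instead of NADPH, stayed near 12 FPKM. It had 11.8, 12.0 and 11.7 FPKM in SE-BDEV, 12.4, 11.5 and 11.7 FPKM in CON-BDEV and 11.2, 11.6 and 12.5 FPKM in Vehicle libraries. The 3 groups overlapped. The log2 fold change was 0.01 (95% interval -0.11 to 0.12) with SE-BDEV and 0.01 (-0.12 to 0.14) with CON-BDEV, with limma adjusted p of 0.943 and 0.926. The Nqo1 and Nqo2 transcripts shared 0 of 1504 windows of 50 nt, so no stretch of that length is common to both.

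Within libraries the order of the paralogs stayed, but the gap closed. The difference Nqo1 minus Nqo2 in log2(FPKM + 1) was -0.38 ± 0.29 in SE-BDEV, -0.52 ± 0.53 in CON-BDEV and -3.00 ± 0.11 in Vehicle libraries (SD, n = 3 each). It differed from Vehicle by 2.62 with SE-BDEV and 2.48 with CON-BDEV; the exact permutation p was 0.1 in each, the smallest that 3 against 3 libraries can give. This contrast was added after the values were seen.

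The promoter of Nqo1 is shown because it belongs to the gene that changed most, and that of Akr1b8 because, of the members that rose and had an entry, only Akr1b8 held a searched motif. Both are RefSeq promoters of GRCm38.p6, 250 bases before to 50 after the start of the gene, 5′ to 3′ on the gene's strand; capitals mark the core of the xenobiotic response element, GCGTG. Nqo1 lies at chr8:107403156-107403455 on the minus strand and Akr1b8 at chr6:34353896-34354195 on the plus strand.
Nqo1 promoter: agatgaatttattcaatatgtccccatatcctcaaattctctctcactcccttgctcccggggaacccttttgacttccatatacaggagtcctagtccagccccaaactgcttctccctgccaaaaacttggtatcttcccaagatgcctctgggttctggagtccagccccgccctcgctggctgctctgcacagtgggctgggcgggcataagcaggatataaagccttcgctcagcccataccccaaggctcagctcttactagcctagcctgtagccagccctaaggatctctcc
Akr1b8 promoter: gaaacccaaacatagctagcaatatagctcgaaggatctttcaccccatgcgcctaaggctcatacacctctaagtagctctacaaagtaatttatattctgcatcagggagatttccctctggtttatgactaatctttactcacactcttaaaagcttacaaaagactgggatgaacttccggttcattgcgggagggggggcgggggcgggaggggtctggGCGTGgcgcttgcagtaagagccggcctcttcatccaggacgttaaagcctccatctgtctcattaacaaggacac

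RefSeq promoter entries were matched for 7 members (8 entries). On both strands, the core of the antioxidant response element, TGACNNNGC, was in 0 of the 8 entries and in 12.4% of all 32851 promoters. The AP-1 site TGANTCA was in 1 entry, of Nqo2, and in 7.81% of all promoters, and GCGTG was in 4 entries, of Akr1b8, Cbr1 and Nqo2, and in 32.4% of all promoters. No matches overlapped in these entries, though a stretch can fit both the antioxidant and the AP-1 pattern. Of the members with a match, Akr1b8 rose and Nqo2 and Cbr1 did not pass. A match is a run of letters, not a bound site, and a window of 300 bases says nothing of elements farther away.

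The carbonyl reductases did not pass the test. Cbr1, an NADPH-dependent reductase of quinones, prostaglandins and drug carbonyls, had 71.0, 68.4 and 69.1 FPKM in SE-BDEV, 72.3, 67.8 and 72.7 FPKM in CON-BDEV and 66.7, 65.9 and 68.7 FPKM in Vehicle libraries. The groups overlapped, with log2 fold changes of 0.05 (95% interval -0.03 to 0.13; limma adjusted p = 0.405) for SE-BDEV and 0.08 (-0.02 to 0.18; limma adjusted p = 0.306) for CON-BDEV. Cbr1 is listed at chr16:93608082-93610594 and its relative Cbr3 at chr16:93683464-93691236 (mm9). Cbr3 was listed at 0 in all 9 libraries and was not tested; a listed 0 can also be a failed estimate. The paralogs shared 1 of 1188 windows of 50 nt of the Cbr1 transcript.

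Akr1a1, the aldehyde reductase that also makes gulonate for vitamin C synthesis in mice, rose by a small and even amount. It had 446, 418 and 441 FPKM in SE-BDEV, 449, 429 and 476 FPKM in CON-BDEV and 360, 363 and 368 FPKM in Vehicle libraries, with no overlap between vesicle and Vehicle libraries. The ratio of means was 1.19 with SE-BDEV and 1.24 with CON-BDEV, and the log2 fold changes 0.26 ± 0.04 (SE; limma adjusted p = 0.00297) and 0.31 ± 0.04 (SE; limma adjusted p = 0.00864). Without Vehicle replicate 1 or 2 the CON-BDEV call was lost (limma adjusted p of 0.0501 and 0.0507). In the authors' deposited table Akr1a1 (chr4:116309115-116324279, mm9) has q = 0.0553 for SE-BDEV and q = 0.0153 for CON-BDEV.

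Akr1b8, an aldose reductase-like enzyme first known in mouse as induced by fibroblast growth factor and closest in role to human AKR1B10, rose more. It had 53.7, 54.4 and 58.0 FPKM in SE-BDEV, 58.9, 47.1 and 60.8 FPKM in CON-BDEV and 36.1, 32.7 and 34.5 FPKM in Vehicle libraries. The lowest vesicle library, CON-BDEV replicate 2, stood above the highest Vehicle library. The ratio of means was 1.61 in each comparison, and the log2 fold changes were 0.67 ± 0.05 (SE; limma adjusted p = 5.14e-05) with SE-BDEV and 0.67 ± 0.09 (SE; limma adjusted p = 0.00681) with CON-BDEV. With no filter on low values the CON-BDEV call was lost (limma adjusted p = 0.0525). In the authors' deposited table Akr1b8 (chr6:34304164-34318454, mm9) has q = 0.00196 for SE-BDEV and q = 0.00245 for CON-BDEV. Of 1309 windows of 50 nt in its transcript, 0 occurred in Akr1b3, 3 in Akr1b7 and 31 in Akr1b10, so little of its signal could be shared with these relatives.

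Akr1b3, the aldose reductase that turns glucose into sorbitol and clears lipid aldehydes, did not pass as listed. It had 61.9, 65.1 and 76.8 FPKM in SE-BDEV, 57.2, 79.3 and 76.7 FPKM in CON-BDEV and 70.6, 83.0 and 57.8 FPKM in Vehicle libraries. The groups overlapped throughout, with log2 fold changes of -0.04 (95% interval -0.31 to 0.23; limma adjusted p = 0.849) for SE-BDEV and 0.01 (-0.31 to 0.34; limma adjusted p = 0.969) for CON-BDEV. Within groups Akr1b3 varied by 11.5% to 17.9% of its mean, against 0.356% to 15.0% for Ephx1 and 1.13% to 5.25% for Akr1a1.

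An almost identical sequence is known under the name of a second listed entry. Whether that entry holds this sequence, and how fragments were divided, was not tested. The authors' deposited table lists a second entry, Gm6644, at the same locus, chr6:34253930-34267489 (mm9), whereas GENCODE M21 places Gm6644 on chromosome 1 as a pseudogene. Over the 948 coding bases of Akr1b3 the pair differ at 3 bases and are identical at 945 (99.7%). The stretch of coding bases 481 to 540 is shown to let the likeness be seen, with the differing base in capitals, from GENCODE M21.
Akr1b3: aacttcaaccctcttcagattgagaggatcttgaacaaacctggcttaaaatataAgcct
Gm6644: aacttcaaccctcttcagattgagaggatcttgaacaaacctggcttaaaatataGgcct

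Of the 50-nt windows of the Akr1b3 transcript 56.2% occurred in Gm6644, and of those of Gm6644 83.4% occurred in Akr1b3. Gm6644 had 169, 148 and 175 FPKM in SE-BDEV, 210, 127 and 158 FPKM in CON-BDEV and 101, 94.6 and 125 FPKM in Vehicle libraries. It rose with SE-BDEV (log2 fold change 0.62, limma adjusted p = 0.00507) and was 0.60 with CON-BDEV (limma adjusted p = 0.0681). The share of Akr1b3 in the sum of the pair ran from 21.4% to 46.7% between libraries.

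The sum of Akr1b3 and Gm6644, added after the values were seen, was steadier. It was 231, 213 and 252 FPKM in SE-BDEV, 267, 206 and 235 FPKM in CON-BDEV and 172, 178 and 183 FPKM in Vehicle libraries, with no overlap between vesicle and Vehicle libraries. The ratio of means was 1.31 with SE-BDEV and 1.33 with CON-BDEV, and the log2 fold changes 0.38 (limma adjusted p = 0.00398) and 0.40 (limma adjusted p = 0.0260). The CON-BDEV call on the sum was lost in 5 of 13 alternatives, with the highest adjusted p at 0.107; these leave out CON-BDEV replicate 3 or any one Vehicle replicate, or drop the filter on low values. Which of the 2 sequences the fragments came from cannot be told from these tables.

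**Figure D2:**
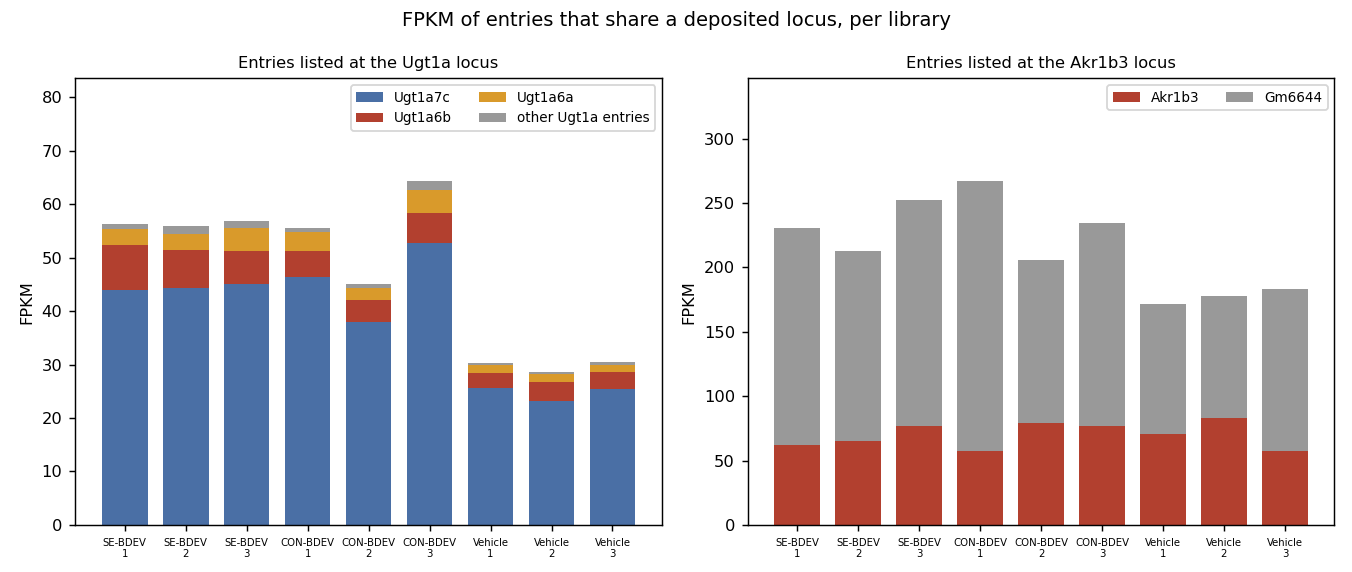
FPKM per library of the entries that share a deposited locus, stacked, for the Ugt1a locus (left) and the Akr1b3 locus (right). Ugt1a7c makes up 77.8% to 84.2% of the Ugt1a sum in each library; the share of Akr1b3 in its locus varies from 21.4% to 46.7% while the summed height separates vesicle from Vehicle libraries.

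Ephx1, the microsomal epoxide hydrolase that turns epoxides of aromatic compounds into diols, rose, with little spread within the SE-BDEV and Vehicle groups. It had 105, 104 and 108 FPKM in SE-BDEV, 103, 87.3 and 118 FPKM in CON-BDEV and 66.9, 67.3 and 66.9 FPKM in Vehicle libraries. All vesicle libraries were higher than all Vehicle libraries, and the CON-BDEV libraries were spread most. The ratio of means was 1.58 with SE-BDEV and 1.54 with CON-BDEV, and the log2 fold changes 0.65 ± 0.03 (SE; limma adjusted p = 6.61e-06) and 0.60 ± 0.09 (SE; limma adjusted p = 0.0108). The CON-BDEV call was lost without Vehicle replicate 2 (limma adjusted p = 0.0507) or 3 (0.0517), and with no filter on low values (0.0599). The authors' deposited table places Ephx1 at chr1:182919687-182947626 (mm9) with q = 0.00196 for SE-BDEV and q = 0.00245 for CON-BDEV.

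Ugt1a6b encodes a glucuronosyltransferase of small phenols. It had 8.46, 7.01 and 6.31 FPKM in SE-BDEV, 4.95, 4.04 and 5.76 FPKM in CON-BDEV and 2.88, 3.68 and 3.24 FPKM in Vehicle libraries. The 3 ranges did not overlap. Between SE-BDEV and CON-BDEV this was so for 7.94% of the genes tested, and Ugt1a6b did not pass there (limma adjusted p = 0.991). The ratio of means was 2.22 with SE-BDEV and 1.50 with CON-BDEV, and the log2 fold changes 0.95 ± 0.10 (SE; limma adjusted p = 0.000654) and 0.47 ± 0.11 (SE; limma adjusted p = 0.0475). The CON-BDEV call was lost in 10 of 13 alternatives; of the fits with 1 library left out it passed only without CON-BDEV replicate 2. In the authors' deposited table Ugt1a6b has log2 fold changes of 1.15 (q = 0.0281) for SE-BDEV and 0.59 (q = 0.542) for CON-BDEV.

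The Ugt1a genes are built from alternative first exons joined to 1 set of shared later exons, so fragments from the shared end have to be divided among them. The authors' deposited table gives all 9 entries of the locus, Dnajb3 included, the same span of chr1:89951986-90116577 (mm9). Coding bases 827 to 886 are shown across the point where the shared end begins, from GENCODE M21, with the start of the end that is identical in all 3 in capitals.
Ugt1a6b: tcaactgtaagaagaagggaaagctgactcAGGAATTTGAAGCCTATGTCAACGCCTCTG
Ugt1a6a: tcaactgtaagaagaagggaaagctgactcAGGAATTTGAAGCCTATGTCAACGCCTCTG
Ugt1a7c: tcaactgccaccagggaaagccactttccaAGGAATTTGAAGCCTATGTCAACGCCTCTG

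From the 1593 coding bases of Ugt1a6b, the last 774 (48.6%) were identical to those of Ugt1a6a and the last 737 (46.3%) to those of Ugt1a7c. Ugt1a6a matched Ugt1a6b beyond the shared end too: 80.4% of the 50-nt windows of the Ugt1a6b transcript occurred in Ugt1a6a, against 56.3% in Ugt1a7c. Most of the locus was assigned to Ugt1a7c, with 44.4 ± 0.557 FPKM in SE-BDEV, 45.7 ± 7.38 FPKM in CON-BDEV and 24.7 ± 1.34 FPKM in Vehicle libraries (SD, n = 3 each). It rose by 0.82 (limma adjusted p = 7.12e-06) with SE-BDEV and 0.85 (limma adjusted p = 0.00434) with CON-BDEV on the log2 scale. Ugt1a6a rose as well, by 0.85 (limma adjusted p = 0.00166) and 0.82 (limma adjusted p = 0.0181).

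Summed over the 8 Ugt1a entries, a value added after the data were seen, the locus had 56.4, 55.9 and 57.0 FPKM in SE-BDEV, 55.6, 45.1 and 64.3 FPKM in CON-BDEV and 30.4, 28.5 and 30.5 FPKM in Vehicle libraries. The vesicle libraries overlapped each other and stood above Vehicle. The sum rose by 0.90 (limma adjusted p = 1.84e-06) with SE-BDEV and 0.85 (limma adjusted p = 0.00537) with CON-BDEV on the log2 scale, and its calls held in all 13 alternatives. Between SE-BDEV and CON-BDEV the sum differed by 0.05 (95% interval -0.16 to 0.26). Ugt1a6b took 11.1% to 15.0% of the sum in SE-BDEV, 8.90% to 8.96% in CON-BDEV and 9.48% to 12.9% in Vehicle libraries.

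**Figure D3:**
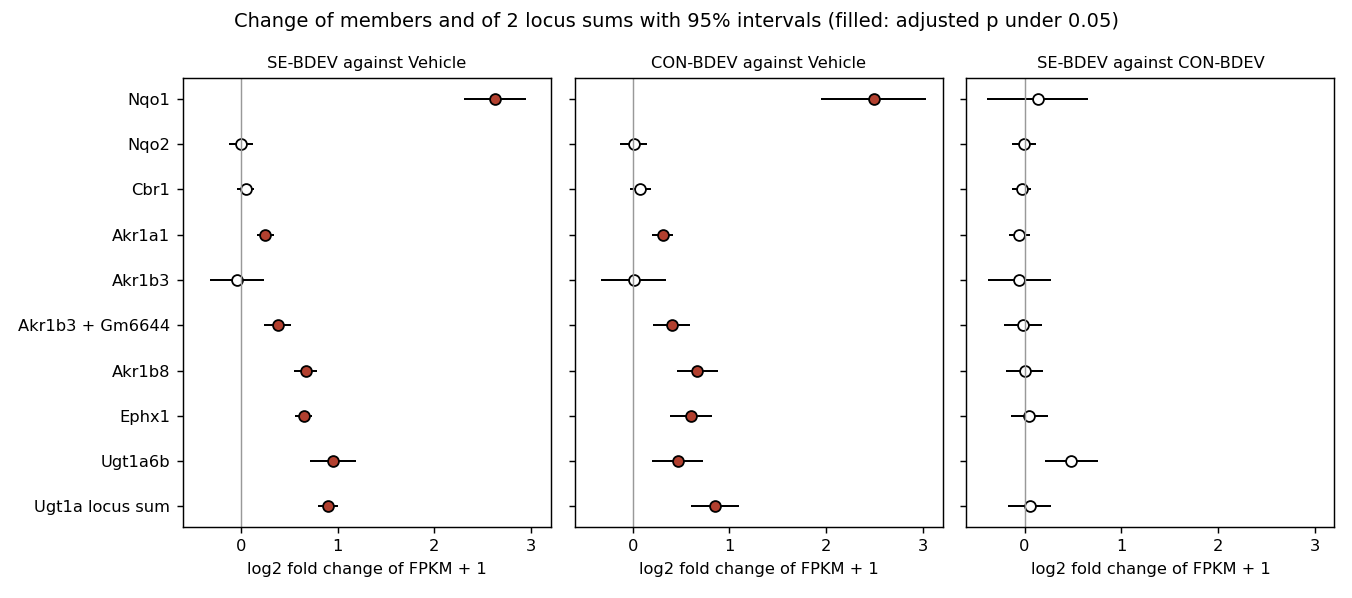
Log2 fold change of FPKM + 1 with its 95% interval from limma, for the 8 members tested and the sums over the Akr1b3 and Ugt1a loci, in 3 comparisons; filled points passed at an adjusted p under 0.05. The 5 members and both sums lie right of 0 in both comparisons with Vehicle, and no point is filled in SE-BDEV against CON-BDEV.

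SE-BDEV was set against CON-BDEV in the 9 joined libraries, to ask whether these genes differed between the vesicle groups. Seizure and anything else that differed between the EV Pilo and EV Saline preparations cannot be told apart here. By limma 0 of 8 members passed, as did 0.0% of the 10532 genes tested, while 509 genes (4.83%) had an unadjusted p under 0.05. The members' log2 differences ran from -0.06 to 0.48, with a median of 0.00 after rounding. Nqo1 differed by 0.13, with a 95% interval of -0.38 to 0.65, which leaves room for a difference either way. The intervals were narrower for Akr1b8 (0.00, -0.18 to 0.18), Ephx1 (0.05, -0.13 to 0.23) and Akr1a1 (-0.05, -0.15 to 0.04).

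Ugt1a6b was the exception in size, at 0.48 (95% interval 0.22 to 0.75), a ratio of means of 1.48. Its unadjusted limma p was 0.00202 and its adjusted p 0.991. It was the only member whose SE-BDEV and CON-BDEV ranges did not overlap, as was so for 7.94% of the genes tested (2.74% with SE-BDEV higher). The exact permutation p was 0.1, the smallest possible. Ugt1a6a differed by 0.04 and Ugt1a7c by -0.03 in the same comparison (limma adjusted p = 0.999 each).

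CON-BDEV replicate 2 was the lowest of the 6 vesicle libraries for Nqo1, Akr1b8, Ephx1 and Ugt1a6b, and had the lowest estimated depth. Without it the CON-BDEV log2 fold changes were 2.81 for Nqo1, 0.78 for Akr1b8, 0.71 for Ephx1 and 0.58 for Ugt1a6b, and all 4 passed. The part of depth in these values was not tested.

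**Figure D4:**
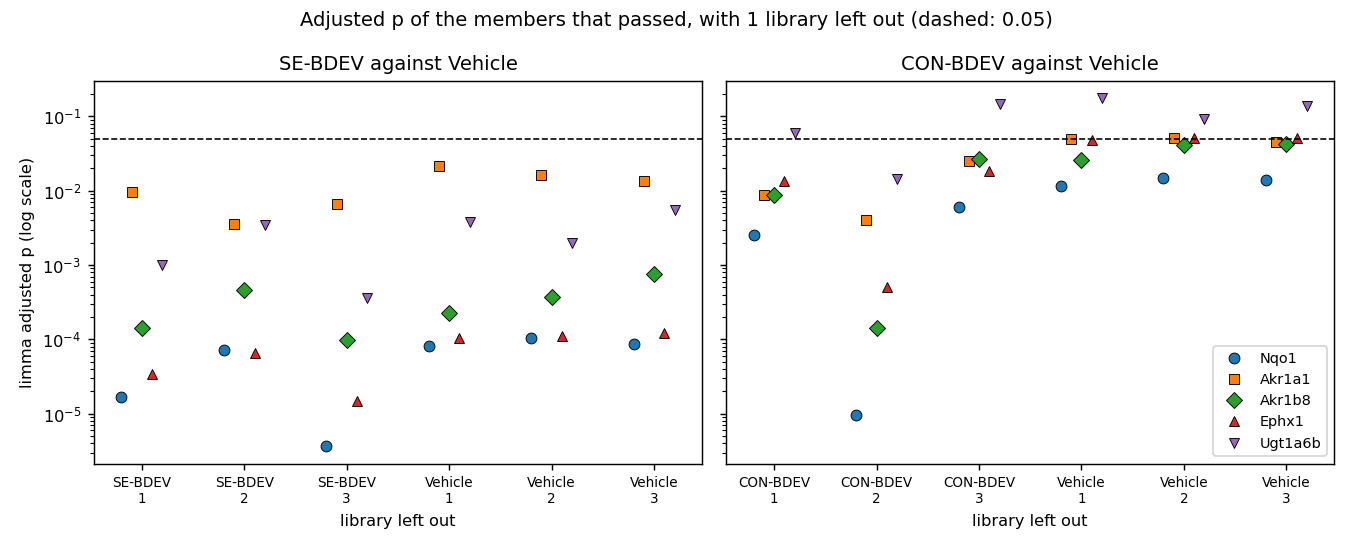
Limma adjusted p (log axis) of the 5 members that passed, with each library in turn left out (x axis); the dashed line is 0.05. With SE-BDEV all 5 stay under the line in all 6 fits, whereas with CON-BDEV Ugt1a6b is over it in 5 of 6, and Akr1a1 and Ephx1 cross it without some of the Vehicle replicates.

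The other genes of the same clearance steps were read from lists by function. Of 22 other carbonyl and quinone reductases, 3 rose and 2 fell with SE-BDEV, and 3 rose and 0 fell with CON-BDEV. Ptgr1, which reduces prostaglandins and lipid aldehydes, had 71.4 ± 6.65 FPKM in SE-BDEV, 74.3 ± 13.6 FPKM in CON-BDEV and 30.1 ± 0.866 FPKM in Vehicle libraries (log2 fold changes 1.22 and 1.26). Blvrb, a biliverdin and flavin reductase, had 103 ± 7.53, 106 ± 11.9 and 44.4 ± 0.745 FPKM in these groups (1.20 and 1.23), and Hsd11b1, which reactivates glucocorticoids, 10.5 ± 0.185, 9.66 ± 1.14 and 6.51 ± 0.254 FPKM (0.62 and 0.50; SD, n = 3 each). Cbr4 and Cryz fell with SE-BDEV, by 0.29 and 0.21 on the log2 scale (limma adjusted p of 0.0414 and 0.0283); they are named because they were the only 2 that did. Neither fell in the fit of all 9 libraries, with a library code block, with no filter, or without Vehicle replicate 1, Vehicle replicate 3 or SE-BDEV replicate 3. The count with CON-BDEV was 6 without CON-BDEV replicate 1 or 2. The list's median was 0.03 in each comparison, near that of all genes.

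None of the 3 other aldo-keto reductases tested, of 14 listed, passed in either comparison; 1 fell with SE-BDEV under a replicate block, and with CON-BDEV in the fit of all 9 libraries and without CON-BDEV replicate 2. Akr1b10 was the most abundant, with 15.6 ± 0.995 FPKM in SE-BDEV, 14.8 ± 0.689 FPKM in CON-BDEV and 14.6 ± 0.450 FPKM in Vehicle libraries, and limma adjusted p of 0.327 and 0.899. Of 12 aldehyde and alcohol dehydrogenases tested, of 21 listed, 2 rose and 0 fell in each comparison. Aldh2, the mitochondrial acetaldehyde dehydrogenase, rose by 0.23 (limma adjusted p = 0.00840) and 0.26 (limma adjusted p = 0.0217), and Sord, which oxidises the sorbitol that aldose reductase makes, by 0.21 (limma adjusted p = 0.00376) and 0.24 (limma adjusted p = 0.0265). With CON-BDEV the 2 calls became 0 with no filter, with quantile normalization, and without CON-BDEV replicate 3 or any one Vehicle replicate, and 1 with no trend or either block. The medians of that list were -0.05 with SE-BDEV and -0.02 with CON-BDEV.

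Among the epoxide hydrolases only Lta4h, the leukotriene A4 hydrolase, was tested of 5 listed. It gave -0.12 (limma adjusted p = 0.0611) with SE-BDEV and -0.03 (limma adjusted p = 0.700) with CON-BDEV. Of 8 genes tested for glucuronidation, sulfation and methylation, of 25 listed, 2 rose in each comparison, Ugt1a6a and Ugt1a7c, and both share the end of Ugt1a6b. With CON-BDEV the count was 1 with no filter and without CON-BDEV replicate 3 or any one Vehicle replicate.

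Of 8 pumps that export conjugates, 5 rose and 0 fell with SE-BDEV, and 1 rose and 0 fell with CON-BDEV. The CON-BDEV count was 5 without CON-BDEV replicate 2 and 3 in the fit of all 9 libraries, and 0 of the 8 differed between SE-BDEV and CON-BDEV by limma. Abcc1, the exporter of glutathione and glucuronide conjugates, had 48.1 ± 2.32 FPKM in SE-BDEV, 47.0 ± 4.92 FPKM in CON-BDEV and 32.0 ± 0.926 FPKM in Vehicle libraries (SD, n = 3 each). Its log2 fold changes were 0.57 (limma adjusted p = 0.000108) and 0.54 (limma adjusted p = 0.00653). Abcc2 and Abcc3, exporters of the same family, rose with SE-BDEV by 0.60 (limma adjusted p = 0.00415) and 0.37 (limma adjusted p = 0.0172), and were 0.41 (0.0743) and 0.32 (0.0539) with CON-BDEV. Abcc4 and Abcc5, named to complete the 5, rose by 0.36 (limma adjusted p = 0.00134) and 0.34 (limma adjusted p = 0.00812) with SE-BDEV. The medians were 0.35 with SE-BDEV and 0.28 with CON-BDEV, and 7 and 6 of the 8 values were positive.

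Of the aryl hydrocarbon receptor battery 4 of 9 genes were tested and 0 passed by limma in either comparison, though 1 fell with SE-BDEV with no trend, with quantile normalization or without Vehicle replicate 3, and 1 rose with CON-BDEV in the fit of all 9 libraries. Of the NRF2 targets with other functions, 18 of 23 tested rose with SE-BDEV and 17 of 22 with CON-BDEV, and 0 fell. Their median log2 fold changes were 0.68 and 0.65. The leading genes were Gclm, the modifier subunit of glutamate-cysteine ligase (2.12 and 2.03), Slc7a11, the cystine importer (1.95 and 1.82), and Hmox1, heme oxygenase 1 (1.77 and 1.65). These lists were drawn up with earlier results of the same libraries known, so the counts describe them and are no independent evidence of a direction.

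**Figure D5:**
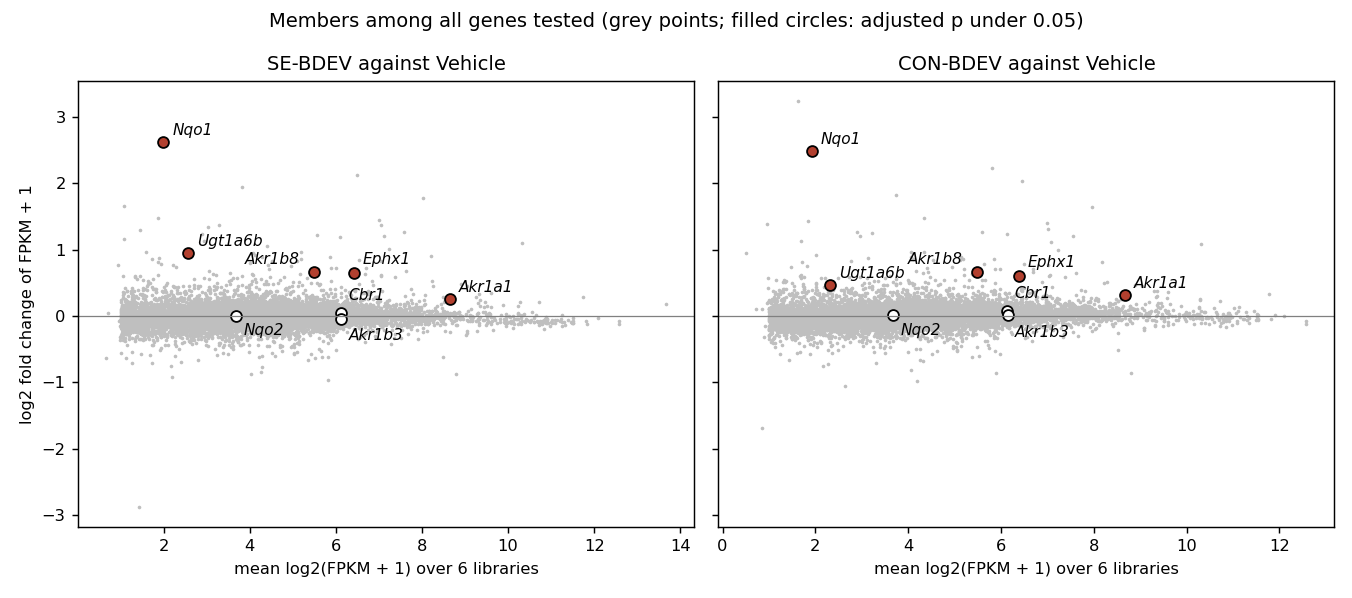
Log2 fold change of FPKM + 1 against the mean log2(FPKM + 1) of the 6 libraries compared, for SE-BDEV (left) and CON-BDEV (right) against Vehicle; grey points are all genes tested and circles the members, filled where the adjusted p was under 0.05. Nqo1 lies highest of the genes tested in the left panel, at 2.62, and at 2.49 below another gene at 3.24 in the right panel. The other members that rose lie between 0.26 and 0.95 in the left panel.

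Clone-named and predicted genes aside, 5 genes outside the members ran most like Nqo1 over the 9 libraries. They were Slc48a1, a heme transporter (Pearson r = 0.999), Cat, catalase (0.998), and G6pdx, the first enzyme of the pentose phosphate pathway (0.997). Prdx1, a peroxiredoxin (0.997), and Me1, malic enzyme (0.996), followed. Genes on the lists above were not left out of this ranking. The points share libraries and a contrast of 6 vesicle with 3 Vehicle libraries, and r is given as a description. Slc48a1 had 213 ± 27.6 FPKM in SE-BDEV, 209 ± 43.9 FPKM in CON-BDEV and 77.3 ± 2.08 FPKM in Vehicle libraries, and Cat 209 ± 15.7, 200.0 ± 33.6 and 90.4 ± 1.87 FPKM (SD, n = 3 each). Their changes were smaller than that of Nqo1: Slc48a1 rose by 1.44 with SE-BDEV and 1.40 with CON-BDEV on the log2 scale, and Me1 by 0.77 and 0.73.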

How the data were processed

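The libraries were polyA-selected mouse RNA of cells treated with SE-BDEV, CON-BDEV or Vehicle, 3 each, grouped by title. Per the labels' protocols, libraries were made with a directional kit. Per the submitters' processing notes the tools were TopHat2 and Cuffdiff with build mm9; versions and annotation are not given in the sources used here.

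The authors deposited an FPKM value per gene and library, in 1 table for each vesicle group with Vehicle. Their Cuffdiff tables hold, per the file headers, mean FPKM, a log2 fold change (vesicle group over Vehicle), the test score, p-value and q-value deposited by the authors. Listed starts behaved as counted from 0, so 1 was added. The tables were joined for SE-BDEV against CON-BDEV by dividing SE-BDEV libraries by the geometric mean of the ratios of their shared Vehicle libraries. The 2 ferritin entries marked as having too many fragments were left out of the comparisons this touches.

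FPKM values are not counts, so log2(FPKM + 1) was tested with limma 3.58.1 in R 4.3.3 (mean of at least 1 FPKM, mean-variance trend, 2-sided, Benjamini-Hochberg over all genes, threshold 0.05). Each vesicle group was compared with Vehicle in its own table, and SE-BDEV with CON-BDEV in a fit of all 9 libraries. An exact permutation test of 3 against 3 cannot give a p below 0.1. Depth was estimated from the steps between values under 0.05 FPKM in 220 genes with a single transcript of at least 4000 nt; a read count is not in the tables. Each fit was also tested on simulated data with known changes in 50 genes per size. Against Vehicle, 46% of 1.2-fold changes passed with SE-BDEV and 42% with CON-BDEV. For 1.5-fold changes it was 82% and 96%, and for 2-fold changes 100% and 98%. In these comparisons genes as low as Nqo1 were not among those changed, and both groups were given the same spread.

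The members and lists were chosen with earlier results of these data known. Named from each list were up to 3 genes past the threshold with the largest change, or else the most abundant. The 5 genes most correlated with Nqo1 were taken outside the members, passing over clone-named and predicted genes. Other genes are said to be named for another reason. Some genes are not reported here. Alternatives were a pseudocount of 0.1 FPKM, no filter, no trend, quantile normalization, all 9 libraries in 1 fit, a block for the number in the library code or the replicate, and leaving out each library. Locus sums and paralog differences were added after the data were seen.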

Additional observations from a re-analysis of the deposited data

How the results depend on the processing

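With SE-BDEV against Vehicle, 5 members passed under every alternative run. With CON-BDEV against Vehicle the members passing were 4 with a library code block, no trend, quantile normalization or a replicate block, 2 with no filter on low values, and 2 to 5 with 1 library left out. The genes called with SE-BDEV were 1253, against 830 in the fit of all 9 libraries, 726 with no filter, and 501 to 1311 with 1 library left out. Those called with CON-BDEV were 597, against 275 with a library code block, 112 with no filter, and 84 to 1067 with 1 library left out. Quantile normalization gave 301 higher and 249 lower genes with CON-BDEV, against 401 and 196 in the fit reported. Between SE-BDEV and CON-BDEV 0 genes were called, against 1 with no trend (Srp54a, lower) and 0 to 1 with 1 library left out. The cause of these moves was not tested. The library code number was 1 for Vehicle replicates 1 and 2 and for replicate 1 of each vesicle group. It was 2 for the other libraries, so it was spread unevenly over the groups. The labels do not explain this number.

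A block on the replicate number gave 1060 genes and 5 members with SE-BDEV, 364 genes and 4 members with CON-BDEV, and 0 of each between the vesicles; same-numbered libraries deviated with correlations of -0.264 to 0.194, so the numbers were not taken as pairs.

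Directions turned only for values that did not pass a test. Nqo2 with SE-BDEV was -0.015 with a library code block. With quantile normalization Akr1b3 with CON-BDEV was -0.033, and between SE-BDEV and CON-BDEV Akr1a1 was 0.011 and the sum of Akr1b3 and Gm6644 was 0.030. With 1 library left out, log2 values ran from -0.026 to 0.050 for Nqo2 and -0.18 to 0.082 for Akr1b3 with SE-BDEV, and from -0.021 to 0.054 for Nqo2 and -0.12 to 0.16 for Akr1b3 with CON-BDEV. Between SE-BDEV and CON-BDEV they ran from -0.19 to 0.32 for Nqo1, -0.022 to 0.025 for Nqo2, -0.20 to 0.031 for Akr1b3, -0.11 to 0.070 for Akr1b8, -0.063 to 0.15 for Ephx1, -0.081 to 0.17 for the Ugt1a sum and -0.11 to 0.072 for the sum of Akr1b3 and Gm6644. Of 312 counts over lists, 280 stayed within 1.5 times. Many were 0 in the fit reported, among them all between SE-BDEV and CON-BDEV, and a 0 that stayed 0 was taken as unchanged. With 3 libraries a group the lack of a call for Cbr1, Nqo2 and Akr1b3 bounds their change only by the intervals given.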

Other observations

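Of the low entries at the Ugt1a locus, which were under the filter and were not tested, Ugt1a10 had 0.488, 0.828 and 0.866 FPKM in SE-BDEV, 0.411, 0.436 and 0.903 FPKM in CON-BDEV and 0.145, 0.121 and 0.268 FPKM in Vehicle libraries, so its vesicle libraries lay above its Vehicle libraries. Ugt1a1, the bilirubin glucuronosyltransferase, had 0.357, 0.376 and 0.284 FPKM in SE-BDEV, 0.208, 0.0294 and 0.304 FPKM in CON-BDEV and 0.0975, 0.0978 and 0.162 FPKM in Vehicle libraries, with overlap between CON-BDEV and Vehicle. Ugt1a9 was listed at 0 in all 3 Vehicle libraries and at 0.0261 to 0.154 FPKM in the 6 vesicle libraries.

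The deposited locus of Nqo2 is shared by 2 other entries, 1110046J04Rik and Serpinb6a. Serpinb6a, a serine protease inhibitor, had 173 ± 2.99 FPKM in SE-BDEV, 188 ± 16.8 FPKM in CON-BDEV and 163 ± 5.63 FPKM in Vehicle libraries (SD, n = 3 each). Its limma adjusted p was 0.200 with SE-BDEV and 0.0965 with CON-BDEV. 1110046J04Rik averaged 1.53 ± 0.419 FPKM in SE-BDEV, 1.65 ± 0.816 FPKM in CON-BDEV and 1.05 ± 0.268 FPKM in Vehicle libraries, with overlapping ranges, and did not pass by limma in either comparison. Both were named because the authors' deposited table gives them the same span as Nqo2, chr13:34009787-34094663 (mm9).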
